A study of Homo sapiens with 8 samples.

Results

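Antigen presentation and interferon-stimulated genes were followed in H460 lung cancer cells that had been cultured as cancer stem cells or selected with cisplatin. The set was a list of 50 named genes that covers the MHC molecules, the machinery that loads them with peptide, the transcription factors of the interferon response and its antiviral effectors. A probe with a matching RefSeq accession was found for 49 of the 50 genes, among 16557 gene symbols with a probe, and 41 of them could be tested, among 11829 symbols tested. IFI27 was not matched to a probe and is not analysed here.

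H460 is an established human cell line of non-small cell lung cancer. H460C cells (CSCs) were H460 cells kept under non-adherent conditions in serum-free DMEM/F12 with N2 supplement, albumin and the growth factors EGF and FGF-b. H460R cells were H460 cells exposed to 0.5 µg/mL cisplatin for 72 h and then returned to drug-free RPMI with serum, the medium in which the H460 cells were also grown. All 3 populations derive from 1 cell line, so H460C differed from H460 in medium, serum, growth factors and attachment together, and the parts these play cannot be told apart. Each of 8 two-color arrays compared 1 RNA sample of H460C or H460R with H460 RNA that carries a single sample label. Each population had 2 RNA samples (replicates), and each was hybridized to 2 arrays with the dyes swapped. Values are log2 ratios over H460, in which 1 is a 2-fold difference and negative values are lower in the studied cells.

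MHC class I molecules carry peptides from inside the cell to its surface, where cytotoxic T cells read them. The peptides are cut by the proteasome, which takes up special catalytic subunits in cells exposed to interferon, and are pumped into the endoplasmic reticulum by the TAP transporter. Type I interferon signals through a complex that holds STAT2 and IRF9 and binds a sequence called the interferon-stimulated response element (ISRE) in the promoters of antiviral genes. Interferon gamma acts mainly through another promoter element (GAS) and through IRF1. Tumor cells are known both for losing class I and for holding part of the interferon program active without added interferon.

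The promoters of 5 members are shown here because these genes carried an ISRE core close to the transcription start and differed in their ratios. IFITM1 (chr11:313790-314059, plus strand), ISG15 (chr1:1013247-1013516, plus strand) and BST2 (chr19:17405611-17405880, minus strand) had ratios above 1 in H460C. IFI6 (chr1:27672173-27672442, minus strand) had a ratio below -1 in H460C, and B2M (chr15:44711267-44711536, plus strand) was lower in H460C and higher in H460R. Each run covers 250 bases before to 20 bases after the RefSeq start (GRCh38.p14), and capitals mark the ISRE core, which is GAAA, any 2 bases and GAAA on either strand, with overlapping matches joined.
IFITM1: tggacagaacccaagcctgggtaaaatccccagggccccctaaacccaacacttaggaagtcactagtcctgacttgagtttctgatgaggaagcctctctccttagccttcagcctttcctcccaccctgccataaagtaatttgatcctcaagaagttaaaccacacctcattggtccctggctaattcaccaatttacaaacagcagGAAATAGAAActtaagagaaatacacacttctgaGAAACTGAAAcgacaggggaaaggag
ISG15: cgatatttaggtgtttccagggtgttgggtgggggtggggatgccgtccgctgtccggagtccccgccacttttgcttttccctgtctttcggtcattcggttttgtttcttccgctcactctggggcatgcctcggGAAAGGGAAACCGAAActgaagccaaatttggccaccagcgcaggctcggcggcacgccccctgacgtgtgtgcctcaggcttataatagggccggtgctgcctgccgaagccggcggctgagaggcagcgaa
BST2: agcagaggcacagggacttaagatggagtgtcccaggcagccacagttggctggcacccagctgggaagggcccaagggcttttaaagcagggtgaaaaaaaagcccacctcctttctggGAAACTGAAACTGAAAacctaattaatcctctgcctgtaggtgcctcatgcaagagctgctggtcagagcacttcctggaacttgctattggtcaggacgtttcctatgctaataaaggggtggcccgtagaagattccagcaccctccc
IFI6: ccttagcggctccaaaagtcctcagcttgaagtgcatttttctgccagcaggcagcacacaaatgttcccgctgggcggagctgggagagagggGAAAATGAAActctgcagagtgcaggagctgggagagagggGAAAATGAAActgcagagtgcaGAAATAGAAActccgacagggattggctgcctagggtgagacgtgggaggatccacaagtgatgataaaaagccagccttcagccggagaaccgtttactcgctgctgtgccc
B2M: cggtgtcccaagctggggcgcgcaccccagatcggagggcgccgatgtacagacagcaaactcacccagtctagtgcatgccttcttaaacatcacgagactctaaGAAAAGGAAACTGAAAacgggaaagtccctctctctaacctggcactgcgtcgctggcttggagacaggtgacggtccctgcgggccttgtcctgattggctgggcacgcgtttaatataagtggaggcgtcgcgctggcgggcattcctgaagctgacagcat
The core lay in the 300-base promoter window of 22 of the 37 members that the RefSeq table holds (59.5%), and in 996 of all 27305 windows (3.65%). The GAS core TTCNNNGAA lay in 7 of the 37 (18.9%) and in 2152 of all windows (7.88%).

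Before the results, the samples were compared with each other and with their labels. The difference between the H460C replicates did not repeat between the dye orientations (r = 0.017 across 24345 probes), while that of H460R did (r = 0.252). The 2 H460C samples therefore differed by less than the hybridization noise and count as 1 sample, so their 2 values are given without an SD. Rank Products and the printed standard errors and p-values of limma still used both H460C ratios, and the limma comparison with their mean as 1 sample is given where it changed a call. H460R is given as mean ± SD (n = 2). Nothing in the labels says that replicates came from separate cultures, so p-values measure only the spread between these samples, which may be technical. The H460C arrays shared 1 slide and the H460R arrays another, and the effect of the slide cannot be told apart from that of the population. Of 5 epithelial genes, the keratins KRT8, KRT18 and KRT19 were well above background in all channels, whereas the cadherin CDH1 was so only in H460C (4 of 4 arrays). The 4 tested epithelial genes stood on both sides of H460 in H460C (KRT19 at -1.15, KRT8 at 0.11, CDH1 at 0.94 and EPCAM at 1.57) and between -0.28 and -0.02 in H460R. The part of such differences in the results was not tested. The leukocyte genes PTPRC and MS4A1 were not well above background on any array, whereas CD14 and CD68 were on all 8, and 3 of the 7 leukocyte genes passed the filter on dim probes. In bulk RNA, fewer cells that express a gene and less RNA per cell cannot be told apart.

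The members split in both directions and most ratios were small. Their median log2 ratio was -0.07 in H460C and -0.12 in H460R, beside 0.0046 and 0.013 over all tested probes. The H460C median changed sign with the normalization (0.11 with median centring of the arrays, which moved the median of all probes from 0.005 to 0.145). The size of the ratio passed 1 for 10 of the 41 tested members in H460C and for 3 of the 41 in H460R, beside 8.79% and 4.76% of all tested probes. The study's test, Rank Products, which asks whether a probe ranks near the top or bottom in both replicates, called 1 member at a false discovery rate of 0.05. It was HLA-DRB5, lower in both populations. Over all 24345 probes the test called 0.505% higher and 0.513% lower in H460C, and 0.464% higher and 0.444% lower in H460R. The smallest ratios it called were 2.27 and -1.99 in H460C and 1.67 and -1.27 in H460R.

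The moderated test of limma against 0, used as an alternative, called 18 members higher and 20 lower in H460C, and 12 higher and 23 lower in H460R. It also called 40% of all probes higher and 37.6% lower in H460C, and 39.7% and 35.7% in H460R, so a call by this test alone did not set a member apart. The H460 RNA is on every array and cancels when the populations are compared with each other. That direct comparison (H460C minus H460R, limma) called 18 members higher and 15 lower in H460C, beside 33.2% and 31.8% of all probes. Counting the H460C replicates as 1 sample left 14 higher and 11 lower, beside 24.2% and 24.3%. The direct difference passed 1 in size for 6 of the 41 members, IFITM1, BST2, GBP2, OASL, OAS1 and IFI6, beside 8.03% of all probes. Ratios of opposite sign with a called difference were found for 11 members, beside 28.4% of all probes.

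**Figure D1:**
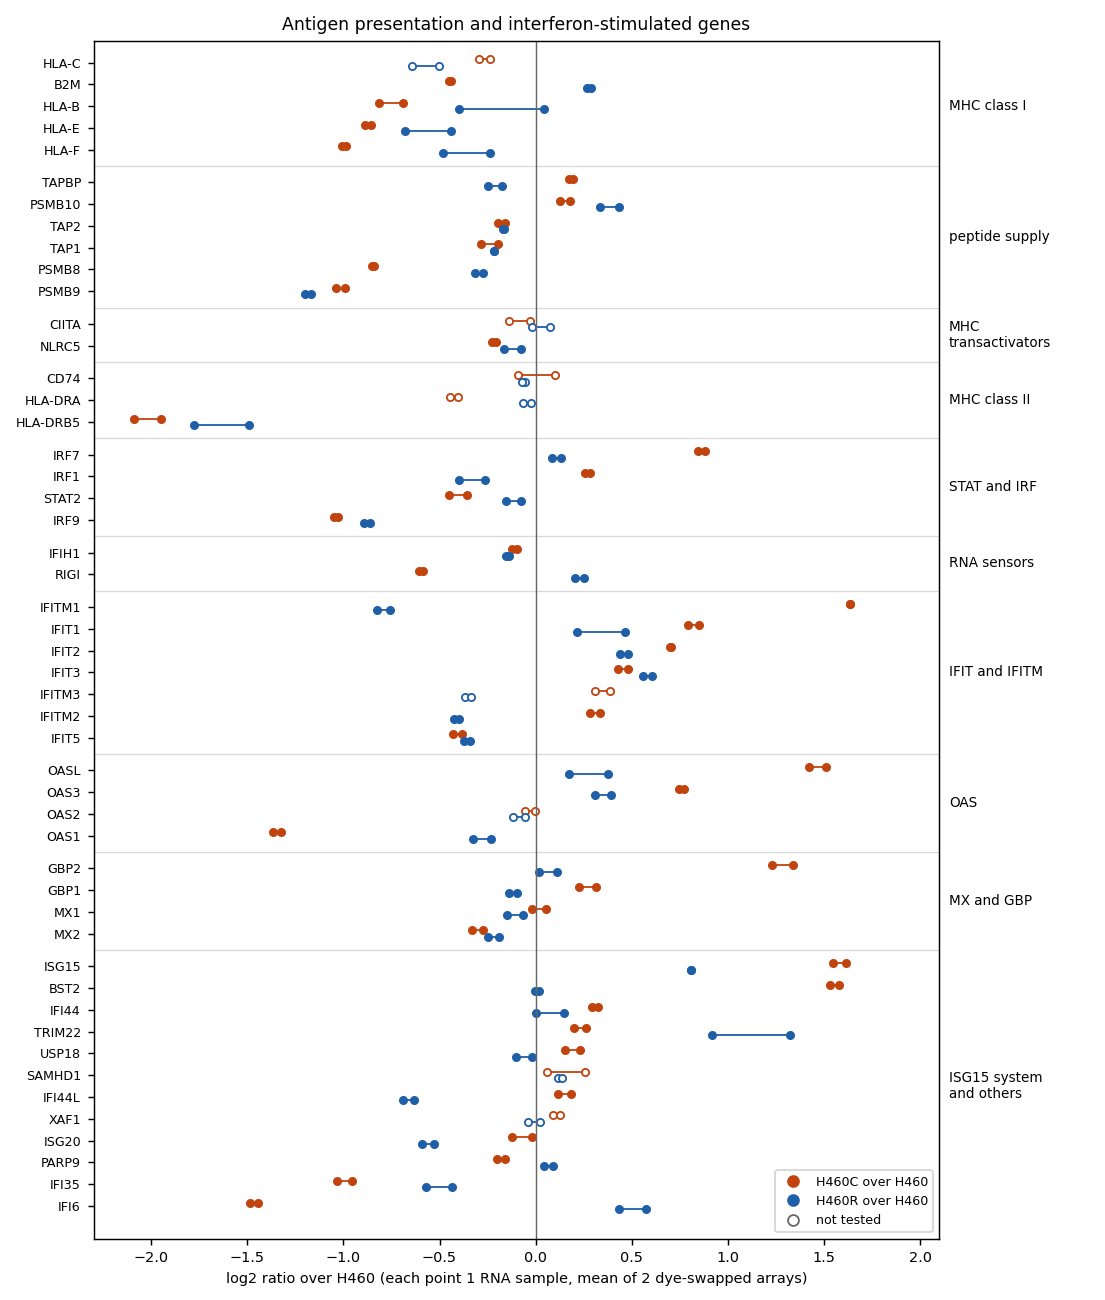
Log2 ratio over H460 (horizontal axis) of the 49 members with a probe, grouped by function. Each point is 1 RNA sample (mean of 2 dye-swapped arrays, except 1 point each of HLA-C and IFITM3, from 1 array), orange for H460C and blue for H460R; open points were not tested. The MHC class I genes lie left of 0 in H460C, while IFITM1, ISG15, BST2, OASL and GBP2 lie to the right of 1.

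All 4 tested MHC class I members had negative ratios in H460C. By the direct test all 4 were called lower in H460C than in H460R, beside 31.8% of all probes. The group's median was -0.81 in H460C and -0.27 in H460R. In H460C it stayed negative under every alternative run (-1.23 to -0.37), while in H460R it was 0.14 on the arrays with the studied cells in Cy3.

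HLA-F, a nonclassical class I molecule, had ratios of -0.99 and -1.01 in the H460C replicates and -0.24 and -0.48 in those of H460R (-0.36 ± 0.17, n = 2). All values were below 0 and the populations did not overlap. The direct difference was -0.64 (SE 0.08, adjusted p = 0.00096 by limma).

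HLA-E, which presents leader peptides of other class I molecules to natural killer cells, had ratios of -0.89 and -0.86 in H460C and of -0.44 and -0.68 in H460R (-0.56 ± 0.17, n = 2). Both populations averaged below H460, with H460C the lower. The H460R mean depended on the dye, at -0.11 in Cy3 and -1.01 in Cy5, and 1 H460R array stood at 0.02. The difference of -0.31 (SE 0.08, adjusted p = 0.0175) lost its call when the H460C replicates were counted as 1 sample (adjusted p = 0.057). A classical class I heavy chain, HLA-B, had ratios of -0.69 and -0.82 in H460C and of 0.04 and -0.40 in H460R (-0.18 ± 0.31, n = 2). The H460R replicates stood on both sides of 0. The difference was -0.58 (SE 0.14, adjusted p = 0.0121). The probe was saturated on 4 of the 8 arrays in the H460 channel, and the H460C mean was -0.11 with it in Cy3 and -1.39 in Cy5. The deposited processed table gave means of -0.11 and -0.03 for this probe, with no call for the difference. Its other tested probe read -1.22 in H460C and -0.53 ± 0.14 (n = 2) in H460R.

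B2M, the light chain shared by all class I molecules, had ratios of -0.44 and -0.45 in H460C and of 0.27 and 0.29 in H460R (0.28 ± 0.02, n = 2). The signs were opposite, and the difference of -0.72 (SE 0.05, adjusted p = 5.33e-05) held on 4 of 4 arrays of each population. The B2M probe was also saturated on 4 of 8 arrays in the H460 channel, on 2 of 4 in H460C and on 2 of 4 in H460R, and its means in the deposited processed table were -0.22 and 0.24. HLA-C, another classical heavy chain, had 1 array left out as an outlier, so 1 of its values rests on a single dye, and it was not tested. Its ratios were -0.29 and -0.24 in H460C and -0.64 and -0.50 in H460R. Unlike the tested class I members, HLA-C read lower in H460R than in H460C. The HLA-C probe was also saturated, on 3 of 8 arrays in the H460 channel, on 2 of 4 in H460C and on 1 of 4 in H460R. Class I genes are near-identical in sequence, so their probes may read each other's transcripts.

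HLA-DRB5, a beta chain of the class II molecule HLA-DR, was the member farthest below H460. Its ratios were -1.95 and -2.09 in H460C, which is 4.05-fold lower, and -1.49 and -1.78 in H460R (-1.63 ± 0.20, n = 2), which is 3.11-fold lower. On this probe both populations lay far below H460 on all arrays, and the software's log ratios put them lower still, at -2.69 and -2.22. A second, dimmer probe that did not pass the filter gave -0.98 and -1.73 in H460C, with 1 array at 0.01, and -0.29 and -0.17 in H460R. Rank Products gave a false discovery rate of 0.0464 in H460C and 0.0129 in H460R. The H460C call was close to the threshold and was lost in the deposited processed table, in the software's own log ratios, on the Cy3 arrays alone, with all spots in the background fit, and with probes that lack an array kept. The direct difference was -0.38 (SE 0.10, adjusted p = 0.0176). DRB genes are close copies, and HLA-DRB1, not a member, read much the same (-1.73 in H460C and -1.51 ± 0.11, n = 2, in H460R).

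The other class II members could not be tested. HLA-DRA, the alpha chain, was well above background on 3 of 4 arrays in the H460 channel of the H460C arrays and on none in H460C, with a ratio at least 1.31-fold lower there. CD74, the invariant chain that guards the peptide groove, and CIITA, the master activator of class II genes, were not well above background in any channel.

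The genes that supply class I with peptide did not share a direction. The group's median was -0.21 in both populations. All 6 members were tested, and none was called by Rank Products. PSMB9, an interferon-inducible proteasome subunit, had ratios of -1.04 and -0.99 in H460C and of -1.20 and -1.17 in H460R (-1.18 ± 0.02, n = 2). Both populations were more than 2-fold below H460 on average. The difference of 0.17 (SE 0.05, adjusted p = 0.0232) lost its call with the H460C replicates counted as 1 sample (adjusted p = 0.17).

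PSMB8, its partner in the immunoproteasome, had ratios of -0.85 and -0.84 in H460C and of -0.32 and -0.28 in H460R (-0.30 ± 0.03, n = 2). Here H460C was clearly the lower (difference -0.55, SE 0.05, adjusted p = 0.000165). The third inducible subunit, PSMB10, stood above H460, at 0.13 and 0.18 in H460C and at 0.33 and 0.43 in H460R (0.38 ± 0.07, n = 2). Its difference of -0.23 (SE 0.06, adjusted p = 0.0134) was not called with H460C as 1 sample (adjusted p = 0.0878). The constitutive subunits that these replace, PSMB5, PSMB6 and PSMB7, had ratios between -0.12 and 0.06 in H460C and between -0.27 and 0.18 in H460R, and none of the 3 differed between the populations by the direct test.

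TAP1 and TAP2, the subunits of the peptide transporter, had small negative ratios. TAP1 averaged -0.24 in H460C and -0.22 ± 0.0015 (n = 2) in H460R, and TAP2 -0.18 and -0.17 ± 0.0026 (n = 2). The direct test called neither. The TAP1 ratios depended on the dye, at -0.43 in Cy3 and -0.055 in Cy5 in H460C, and at -0.44 and 0.01 in H460R. Tapasin (TAPBP), which bridges the transporter and class I, had ratios of 0.18 and 0.19 in H460C and of -0.18 and -0.25 in H460R (-0.21 ± 0.05, n = 2). The signs were opposite (difference 0.40, SE 0.05, adjusted p = 0.000837), although the 2 other tested TAPBP probes, which match another transcript, averaged 0.12 and 0.01 in H460C and 0.08 and -0.13 in H460R. NLRC5, the activator of class I genes, had ratios of -0.21 and -0.23 in H460C and of -0.08 and -0.17 in H460R (-0.12 ± 0.06, n = 2). Its difference was not called (-0.10, SE 0.05, adjusted p = 0.156), but it was with the mean over its 3 probes (-0.22, adjusted p = 0.0099) and with the software's log ratios (-0.24, adjusted p = 0.0231).

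The transcription factors of the interferon response stood on both sides of H460. IRF9, the DNA-binding part of the type I interferon complex, had ratios of -1.03 and -1.05 in H460C and of -0.89 and -0.86 in H460R (-0.88 ± 0.02, n = 2). It was low in both, and the difference of -0.16 (SE 0.05, adjusted p = 0.0260) was not called with H460C as 1 sample (adjusted p = 0.194). STAT2, its partner, had ratios of -0.45 and -0.36 in H460C and of -0.08 and -0.15 in H460R (-0.12 ± 0.05, n = 2), with a difference of -0.29 (SE 0.06, adjusted p = 0.00551).

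IRF7, the factor that amplifies type I interferon production, stood on the other side, at 0.88 and 0.85 in H460C and at 0.13 and 0.09 in H460R (0.11 ± 0.03, n = 2). Its difference of 0.76 (SE 0.05, adjusted p = 5.36e-05) was the largest of the 4 factors. IRF1, the main interferon gamma target among them, had ratios of 0.28 and 0.26 in H460C and of -0.26 and -0.40 in H460R (-0.33 ± 0.09, n = 2). The signs were opposite and the difference was called (0.60, SE 0.06, adjusted p = 0.000306), but the ratios over H460 depended on the dye. With IRF1 the H460C mean was 0.70 in Cy3 and -0.16 in Cy5, and the H460R mean 0.05 and -0.71.

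Of the RNA sensors, RIGI (RIG-I), which detects viral RNA ends, had ratios of -0.61 and -0.59 in H460C and of 0.20 and 0.25 in H460R (0.23 ± 0.03, n = 2). H460C was below and H460R above H460 (difference -0.83, SE 0.05, adjusted p = 3.63e-05), although the H460R mean was -0.07 in Cy3 and 0.52 in Cy5. IFIH1 (MDA5), the sensor of long double-stranded RNA, had ratios of -0.10 and -0.13 in H460C and of -0.15 and -0.14 in H460R (-0.15 ± 0.01, n = 2). No difference was called (0.03, SE 0.05, adjusted p = 0.555), and its sign turned on the Cy3 arrays alone (-0.05).

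The IFIT and IFITM families were the group most often above H460 in H460C. Of the 6 tested members 5 had positive ratios there. The direct test called 4 higher in H460C than in H460R, with none lower, beside 33.2% and 31.8% of all probes. The median was 0.58 in H460C (0.46 to 0.81 over the alternatives) and -0.01 in H460R.

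IFITM1, a membrane protein that blocks virus entry, had ratios of 1.64 and 1.64 in H460C, which is 3.11-fold higher than H460, and of -0.76 and -0.82 in H460R (-0.79 ± 0.04, n = 2), which is 1.73-fold lower. Every array of H460C was above 0 and every array of H460R below. The difference of 2.43 (SE 0.05, adjusted p = 1.4e-06) was the largest of all members, and it also passed the limma test against a minimum difference of 1. IFITM2, its neighbor in sequence and function, had ratios of 0.33 and 0.28 in H460C and of -0.43 and -0.40 in H460R (-0.41 ± 0.02, n = 2). The direction was that of IFITM1 at a smaller size (difference 0.72, SE 0.05, adjusted p = 6.44e-05). IFITM3 was not tested because 1 of its arrays was left out as an outlier, which leaves 1 value on a single dye, and read 0.39 and 0.31 in H460C and -0.37 and -0.34 in H460R. The 3 genes are close copies, so their probes may share transcripts.

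The IFIT proteins bind viral RNA. IFIT1 had ratios of 0.79 and 0.85 in H460C and of 0.22 and 0.47 in H460R (0.34 ± 0.18, n = 2). Both populations were above H460, and H460C was the higher (difference 0.48, SE 0.09, adjusted p = 0.00373). IFIT2 followed, with 0.71 and 0.70 in H460C and 0.48 and 0.44 in H460R (0.46 ± 0.03, n = 2), and its difference of 0.24 (SE 0.05, adjusted p = 0.00509) was lost with H460C as 1 sample (adjusted p = 0.062). IFIT3 averaged 0.46 in H460C and 0.58 ± 0.03 (n = 2) in H460R. IFIT5, the member of the family below H460, averaged -0.41 in H460C and -0.36 ± 0.02 (n = 2) in H460R, and neither of these last 2 genes differed between the populations by the direct test.

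The OAS enzymes, which make the messenger that activates RNase L, had ratios of opposite sign in H460C. OAS1 had ratios of -1.36 and -1.32 in H460C, 2.54-fold lower than H460, and of -0.23 and -0.33 in H460R (-0.28 ± 0.07, n = 2). H460C was the lower by -1.06 (SE 0.05, adjusted p = 2.26e-05). OASL, an OAS-like protein without the enzyme activity, had ratios of 1.42 and 1.51 in H460C, 2.77-fold higher, and of 0.17 and 0.37 in H460R (0.27 ± 0.14, n = 2). Its difference was 1.19 (SE 0.08, adjusted p = 5.7e-05), and the H460C mean was 2.75 in the software's log ratios. The H460 channel was dim for OASL, well above background on 3 of 4 arrays of each population. OASL did not pass a stricter filter on dim probes, nor did GBP1, GBP2, MX2 and IFI44L. OAS3 lay between them, at 0.75 and 0.77 in H460C and at 0.31 and 0.39 in H460R (0.35 ± 0.06, n = 2), with a difference of 0.41 (SE 0.05, adjusted p = 0.000808). Its second probe gave 0.32 and 0.09. OAS2 was too dim to be tested.

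Among the interferon-induced GTPases, GBP2 had ratios of 1.23 and 1.34 in H460C, 2.44-fold higher than H460, and of 0.11 and 0.02 in H460R (0.06 ± 0.07, n = 2). The populations did not overlap (difference 1.22, SE 0.06, adjusted p = 2.18e-05), and the H460C mean was 2.33 in the software's log ratios. The H460 channel was well above background for GBP2 on 3 of the 4 H460R arrays. GBP1 had ratios of 0.32 and 0.23 in H460C and of -0.14 and -0.10 in H460R (-0.12 ± 0.03, n = 2), with a difference of 0.39 (SE 0.05, adjusted p = 0.00115). On the H460R arrays GBP1 was well above background on 3 of 4 in H460R and on 2 of 4 in the H460 channel. It passed the filter on dim probes only through H460C, where it was high, so its call was not independent of the filter. The counts of 18 higher members and 11 of opposite sign above include it. MX2 was slightly below H460 in both, at -0.33 and -0.27 in H460C and at -0.25 and -0.19 in H460R (-0.22 ± 0.04, n = 2), and its difference was not called (-0.08, SE 0.05, adjusted p = 0.206). The influenza restriction factor MX1 averaged 0.02 in H460C and -0.11 ± 0.06 (n = 2) in H460R, also without a called difference.

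The remaining antiviral genes held the widest spread, from -1.47 to 1.58 in H460C. ISG15, a ubiquitin-like protein joined to target proteins after interferon, had ratios of 1.61 and 1.55 in H460C, 2.99-fold higher than H460, and of 0.81 and 0.81 in H460R (0.81 ± 0.0005, n = 2), 1.75-fold higher. It was above H460 on all 8 arrays, with a difference of 0.77 (SE 0.05, adjusted p = 5.37e-05). USP18, the enzyme that removes ISG15, had ratios of 0.23 and 0.15 in H460C and of -0.10 and -0.02 in H460R (-0.06 ± 0.06, n = 2). Its difference of 0.25 (SE 0.06, adjusted p = 0.00885) was not called with H460C as 1 sample (adjusted p = 0.0605). The mean over the 2 tested USP18 probes was 0.12 in H460C and -0.13 in H460R. Its sign changed with the dye, at -0.01 in Cy3 and 0.395 in Cy5 in H460C, and at -0.31 and 0.19 in H460R.

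BST2 (tetherin), which holds budding viruses at the cell surface, had ratios of 1.58 and 1.53 in H460C, 2.94-fold higher, and of 0.02 and -0.01 in H460R (0.01 ± 0.02, n = 2). H460C stood alone here (difference 1.55, SE 0.05, adjusted p = 4.28e-06), and this difference also passed the test against a minimum of 1. The software's log ratios put the H460C mean at 2.40.

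IFI6, a mitochondrial protein that protects cells from apoptosis, was the reverse. Its ratios were -1.45 and -1.49 in H460C, 2.76-fold lower than H460, and 0.57 and 0.43 in H460R (0.50 ± 0.10, n = 2), 1.42-fold higher. The difference of -1.97 (SE 0.06, adjusted p = 4.61e-06) passed the minimum of 1 as well, and it held on all arrays of both dyes. IFI44L had ratios of 0.12 and 0.18 in H460C and of -0.63 and -0.69 in H460R (-0.66 ± 0.04, n = 2), with a difference of 0.81 (SE 0.05, adjusted p = 5.29e-05) and an H460R mean of -1.75 in the software's log ratios. PARP9, a protein of the antiviral response, had ratios of -0.16 and -0.20 in H460C and of 0.09 and 0.05 in H460R (0.07 ± 0.03, n = 2). Its difference of -0.25 (SE 0.05, adjusted p = 0.00548) was not called with H460C as 1 sample (adjusted p = 0.0583), and its ratios changed sign between the dyes in H460R (-0.10 and 0.24).

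TRIM22, a ubiquitin ligase with antiviral activity, was not well above background in H460 on any array and was above it on all 4 H460R arrays, where it was at least 2.14-fold higher. In H460C it was well above background on 2 of 4 arrays. The fitted ratios were 0.92 and 1.32 in H460R and 0.26 and 0.20 in H460C. IFI35 averaged -0.99 in H460C and -0.50 ± 0.10 (n = 2) in H460R, IFI44 0.31 and 0.08 ± 0.10 (n = 2), and the exonuclease ISG20 -0.07 and -0.56 ± 0.05 (n = 2). The direct test called IFI35 lower and IFI44 and ISG20 higher in H460C, but not IFI44 with H460C as 1 sample (adjusted p = 0.0944). It also called TRIM22 lower in H460C, and the count of 15 lower members above includes it. TRIM22 passed the filter on dim probes only through H460R, where it was high, so its call was not independent of the filter. The ISG20 probe was saturated on 4 of 8 arrays in the H460 channel, on 2 of 4 in H460C and on 1 of 4 in H460R, and its H460C mean changed sign with the dye (0.37 in Cy3 and -0.51 in Cy5). XAF1, a promoter of apoptosis, and SAMHD1, which depletes nucleotides, were too dim to be tested.

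**Figure D2:**
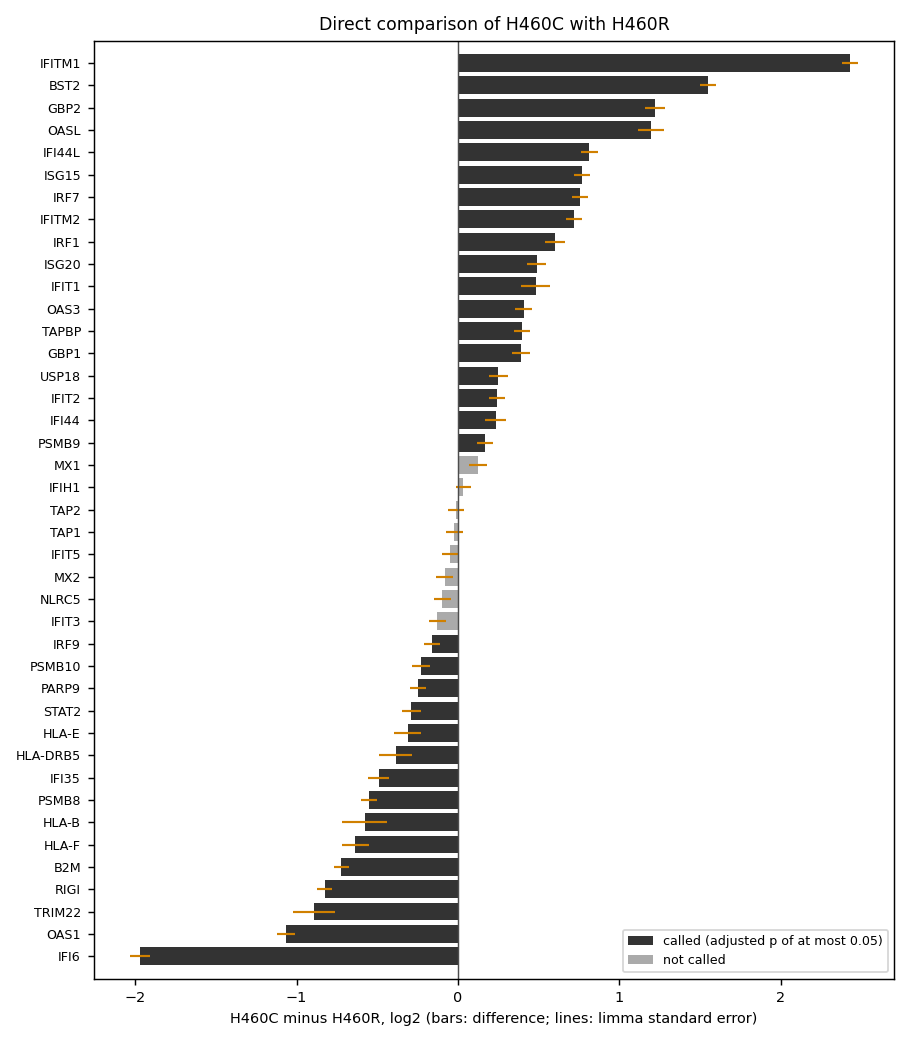
Direct difference H460C minus H460R (log2, horizontal axis) of the 41 tested members, with limma standard errors as orange lines. Dark bars were called and gray bars were not. IFITM1 (2.43) and IFI6 (-1.97) stand at the 2 ends, and the 8 gray bars lie between -0.13 and 0.12.

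The sign of a ratio depended on the dye for some members. On all 4 arrays of a population, 33 of the 41 members kept 1 sign in H460C (80.5%, beside 65.4% of all probes) and 28 in H460R (68.3%, beside 57.9%). The median gap between dye orientations was 0.24 in H460C and 0.30 in H460R for the members, and 0.27 and 0.26 for all probes. ISG15, OASL, IFI6 and PSMB9 read nearly the same in both orientations. HLA-E, in contrast, averaged -0.43 with H460C in Cy3 and -1.32 with it in Cy5, and IFI35 averaged -0.52 and -1.47. In H460R, IFI35 averaged 0.05 in Cy3 and -1.06 in Cy5. The means of IRF1, MX1, NLRC5 and USP18 changed sign with the dye in both populations. IFITM1 averaged 1.23 and 2.04 in H460C, and -1.16 and -0.42 in H460R, so its size but not its sign moved with the dye. Averaging the dye-swapped arrays removes such an offset where it is the same in both orientations, and the direct comparison removes it again because the orientations are balanced in both populations.

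**Figure D3:**
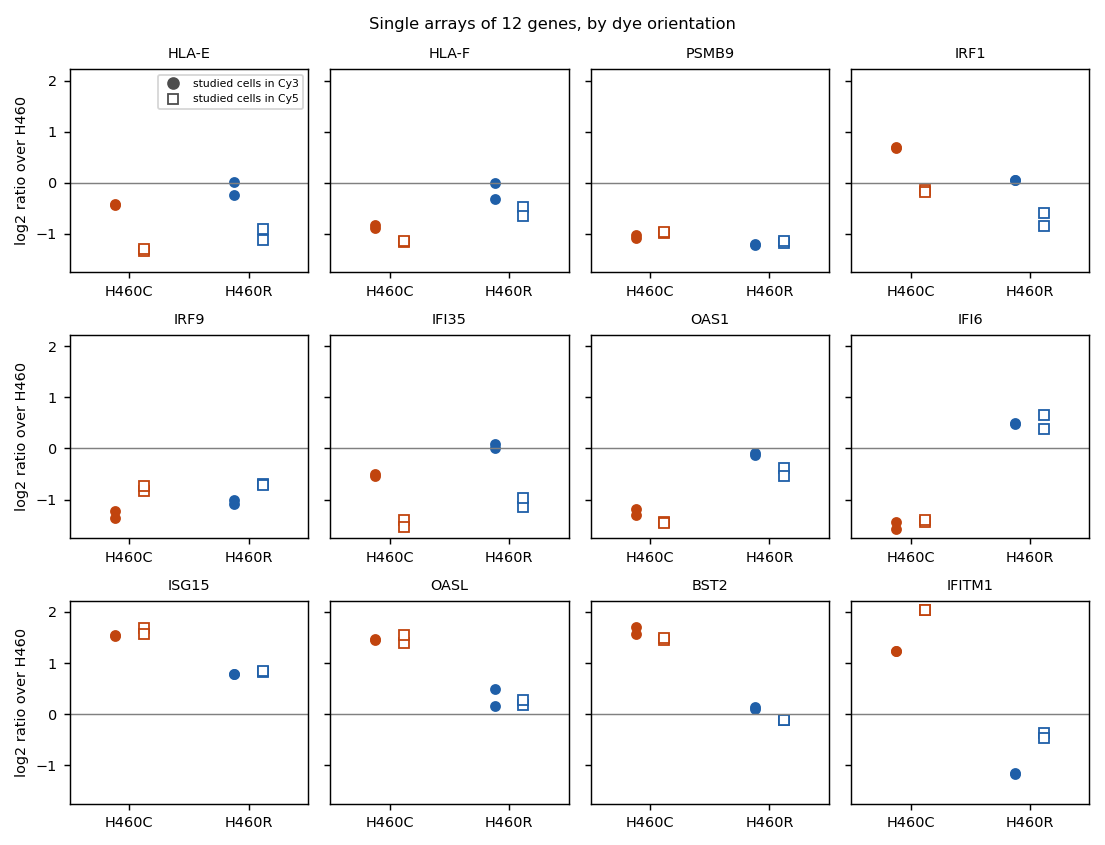
Log2 ratio over H460 (vertical axis) of 12 members on each of the 8 arrays, with filled circles for the studied cells in Cy3 and open squares for Cy5. IFI6, OASL and ISG15 agree between dyes, while HLA-E, IFI35 and IRF1 are offset by dye in both H460C and H460R.

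The wider pathway lists were read in the same way, beside the 33.2% of all probes that were higher and the 31.8% that were lower in H460C in the direct comparison. Of 27 tested further genes of antigen presentation, 6 were higher and 16 lower in H460C than in H460R, and their medians over H460 were -0.24 in H460C and 0.09 in H460R. Rank Products called 2 of them higher in H460C. IFI30 (GILT), the lysosomal reductase that opens antigens for class II loading, had ratios of 3.51 and 3.49 in H460C and of 0.50 and 0.53 in H460R (0.51 ± 0.02, n = 2). Cathepsin S (CTSS), which trims the invariant chain, had ratios of 2.27 and 2.29 in H460C and of 0.30 and 0.22 in H460R (0.26 ± 0.06, n = 2). Both of these class II processing enzymes were far above H460 in the cells with the lower HLA-DRB5 ratio. HLA-DRB1, with -1.72 and -1.75 in H460C and -1.44 and -1.59 in H460R, was called lower in H460R only, a contrast between populations that Rank Products does not test.

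Of 35 tested further interferon-stimulated genes, 10 were higher and 11 lower in H460C than in H460R. Rank Products called WARS1, a tRNA synthetase induced by interferon gamma, lower in H460R (-1.79 and -1.83, with -1.89 and -1.94 in H460C). It also called LAMP3, a lysosomal membrane protein of mature dendritic cells, lower in H460R (-1.83 and -1.84, with -1.22 and -1.18 in H460C). Of 16 tested receptors and signaling genes, 5 were higher and 8 lower in H460C than in H460R. Of the interferon genes themselves 5 had a probe, and 1 of them passed the filter on dim probes.

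**Figure D4:**
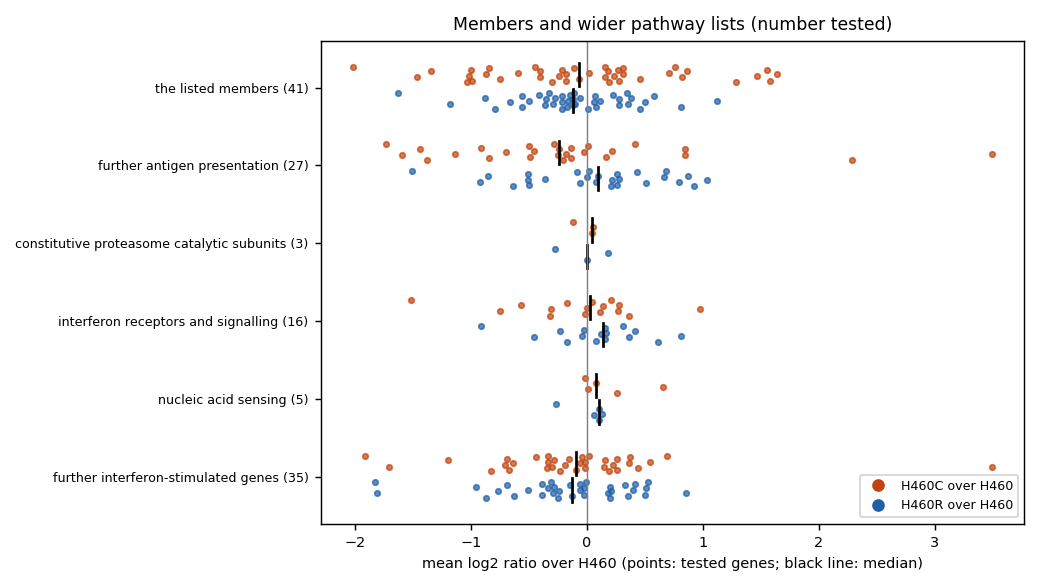
Mean log2 ratio over H460 (horizontal axis) of each tested gene in the 41 members and in 5 wider lists, orange for H460C and blue for H460R, with the median as a black line. The medians lie near 0 in every list, and IFI30 at 3.50 (shown in the 2 lists that hold it) is the point farthest from 0.

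Members with and without an ISRE core in the promoter window were set side by side. The 20 tested members with the core had a median of 0.15 in H460C and -0.11 in H460R, and 10 were higher and 4 lower in H460C than in H460R. For the 11 tested members whose window held no exact core the medians were -0.85 and -0.30, and 2 were higher and 9 lower. Over all probes 33.2% were called higher and 31.8% lower. Both kinds spanned 0 in H460C, from -1.47 to 1.64 with the core and from -2.02 to 0.27 without it. IFI6, with 3 cores within 156 bases of its start, was at the low end of the first kind, and the BST2, ISG15 and IFITM1 promoters printed above, each with 2 cores, were at its high end. No test was made of this split, and a match of letters does not show that a factor binds there. Nor does the lack of an exact match show that a gene lacks such an element. The windows of OAS1 and RIGI, counted as without the core, hold GAAACGAAA, in which the GAAA runs stand closer together.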

How the data were processed

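Duplicate RNA samples of H460C and H460R were hybridized with H460 RNA to two-color whole genome arrays, with dye swaps. The authors scanned the arrays and extracted spots with Feature Extraction, so the deposited scanner files hold linear intensity values per spot, with the software's log10 ratio. On 1 array this ratio had lost its decimal point and was rescaled by a power of 10 (9 places). The flags for background, saturation and outliers are deposited scores. In the table that the authors processed and deposited, values are log2, studied cells over H460, on every array (r = 0.982 to 0.998 with the scanner ratios), with column medians between -0.02 and 0. It is used as an alternative. The tool named in the submitters' processing notes is limma.

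Here, in R 4.3.3 with limma 3.58.1, median signals were background-corrected (normexp, offset 50), after removing the 0 to 17 spots per array whose local background exceeded 2 times the median background, and normalized by loess. Control and outlier spots were left out. All ratios were given the direction studied cells over H460, and the dye-swapped arrays of an RNA sample were averaged. Of 41000 probes, 26046 had at least a share of 0.5 of their spots well above background in every channel of 1 population, and the 24345 of these measured on all 8 arrays were tested. Between 22834 and 28499 probes per channel were well above background, and with arrays it is their number that limits the precision. Each population was compared with H460 by Rank Products (2 ratios, exact distribution, Benjamini-Hochberg at 0.05), which leaves out the spread of the single H460 RNA, and H460C with H460R by limma on 4 ratios (2 residual and 3.95 prior degrees of freedom). On simulated ratios of 24345 probes, with all others unchanged, Rank Products recovered 100% of the probes changed by 1 or 2 in H460C. In the same simulation limma recovered 86% of those that differed by 1. The Rank Products share does not carry over to these data, where 8.79% of probes passed 1 in size in H460C. The smallest ratios it called there were 2.27 and -1.99. Replicate numbers did not pair the samples across populations (r = 0.045 between the deviations of replicate 1).

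A gene was read from its brightest tested probe (9 members had several). Probes were named through their RefSeq accessions, and 23958 of 25868 probes with such an accession matched a symbol. Values per replicate are given for members called by Rank Products, for the 3 with the largest ratio in each functional group, and for those with opposite signs and a called difference. Genes of the other lists are named where Rank Products called them. The members, the lists and the tests were chosen with earlier results of these data known. Alternatives changed the source of the ratio, the background correction, the normalization, the filter, the dye, the probe, the test and the replicates.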

Additional observations from a re-analysis of the deposited data

Results flagged for a closer look

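The ratios over H460 of 29 of the 32 members described by replicate differed between H460C and H460R by the direct limma test, given as H460C minus H460R on the log2 scale. H460C was the higher for IFITM1 (2.43), BST2 (1.55), GBP2 (1.22), OASL (1.19), IFI44L (0.81), ISG15 (0.77), IRF7 (0.76), IFITM2 (0.72), IRF1 (0.6), IFIT1 (0.48), OAS3 (0.41), TAPBP (0.4), GBP1 (0.39), USP18 (0.25), IFIT2 (0.24) and PSMB9 (0.17). It was the lower for IFI6 (-1.97), OAS1 (-1.06), RIGI (-0.83), B2M (-0.72), HLA-F (-0.64), HLA-B (-0.58), PSMB8 (-0.55), HLA-DRB5 (-0.38), HLA-E (-0.31), STAT2 (-0.29), PARP9 (-0.25), PSMB10 (-0.23) and IRF9 (-0.16). With the H460C replicates counted as 1 sample, 22 of the 29 were still called, and HLA-E, PSMB9, PSMB10, IRF9, IFIT2, USP18 and PARP9 were not. The call of GBP1 was not independent of the filter on dim probes, which it passed only through H460C. A called difference with opposite signs was 1 rule for describing a member by replicate. The count of 29 was thus partly set in advance. Of all 41 tested members, the direct test called 18 higher and 15 lower in H460C. Differences of either direction were called for 33.2% and 31.8% of all probes, so a call alone is common on these arrays. Each population lay on its own slide, and slide and population cannot be told apart.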

How the results depend on the processing

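The Rank Products call of HLA-DRB5 in H460C became 0 calls with the software's log ratios, the deposited processed table, the Cy3 arrays alone, all spots in the normexp fit, or probes with a missing array kept; the last 2 settings were chosen after seeing the data. The count of members higher in H460R became 1 with the software's log ratios, and of those lower in H460R 2 without a filter. Replacing Rank Products by limma gave 18 higher and 20 lower in H460C and 12 and 23 in H460R; limma with a minimum ratio of 1 gave 5 and 3 in H460C, 2 lower in H460R, and 2 higher and 1 lower in the direct comparison. The H460C median of all members was 0.114 with median centring, -0.146 with the stricter filter and -0.011 on the Cy3 arrays; the H460R median was -0.229 with the software's log ratios and -0.065 with median centring. Leaving out each replicate in turn gave 14 to 19 members higher and 11 to 17 lower in H460C than in H460R, and medians of -0.099 to -0.020 in H460C and -0.155 to -0.101 in H460R. Without H460C replicate 1 the differences of HLA-E (-0.30), PSMB9 (0.19), PSMB10 (-0.20), STAT2 (-0.24), IRF9 (-0.17), IFIT2 (0.24) and USP18 (0.21) lost their calls, and without H460C replicate 2 those of HLA-DRB5 (-0.32), PSMB9 (0.15), PSMB10 (-0.25), IRF9 (-0.15), IFIT2 (0.25) and PARP9 (-0.23). The lone sample is then taken to vary like the others. The IFIH1 difference reversed to -0.051 on the Cy3 arrays; the cause of these moves was not tested. The replicate block changed none of the 32 calls on named differences (IFITM1 2.43), and left 18 members higher and 15 lower.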

Other observations

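The genes named here were chosen after their values were seen. Unlike CTSS, the lysosomal protease CTSL averaged -1.60 in H460C and 0.68 ± 0.09 (n = 2) in H460R, with a direct difference of -2.28 (SE 0.06), and CTSB, another cathepsin, averaged -1.39 and -0.08 ± 0.12 (n = 2). The class II chain HLA-DQB1 averaged -1.44 in H460C and -0.64 ± 0.23 (n = 2) in H460R, and HLA-DRB3 -1.14 and -0.93 ± 0.06 (n = 2), although DRB probes may share transcripts. HLA-DMA, which helps peptide onto class II molecules, averaged -0.14 in H460C and 0.79 ± 0.14 (n = 2) in H460R.

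Among the ligands of the natural killer cell receptor NKG2D, MICA averaged 0.84 in H460C and 0.66 ± 0.17 (n = 2) in H460R, and MICB 0.85 and 0.43 ± 0.01 (n = 2), while ULBP2 averaged -0.85 and 0.22 ± 0.02 (n = 2). Of the signaling genes, JAK1, the kinase shared by all interferon receptors, averaged -1.52 in H460C and 0.81 ± 0.28 (n = 2) in H460R on its brightest probe, a direct difference of -2.33 (SE 0.12). IFNLR1, a chain of the interferon lambda receptor, averaged 0.98 and 0.12 ± 0.11 (n = 2).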
